A study of Mus musculus with 12 samples.

Results

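The calcineurin, NFAT and MEF2 genes were followed across hearts of apelin-knockout and wild-type mice, with and without pressure overload. The set held 10 genes: the calcineurin regulators Rcan1 and Rcan2, the catalytic subunits Ppp3ca and Ppp3cb, the transcription factors Nfatc1, Nfatc3 and Nfatc4, and the transcription factors Mef2a, Mef2c and Mef2d. They were chosen by symbol, as every probe set that the platform annotation gives to one gene of that list. This gave 37 probe sets, of 34945 with a single gene, and 10 genes of 18193. All 10 genes were among the 10916 tested.

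Calcineurin is a phosphatase that is switched on by calcium and calmodulin. It removes phosphate from NFAT proteins, which then enter the nucleus and act with GATA4 and MEF2 factors on genes of hypertrophic growth in heart muscle. Rcan proteins bind calcineurin and restrain it, and a short form of Rcan1 is itself transcribed under NFAT control, so that its message is widely used as a readout of calcineurin activity. MEF2 factors are held back by class IIa histone deacetylases, which leave the nucleus when kinases such as CaMKII or protein kinase D phosphorylate them.

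There were 4 groups of 3 arrays, each labelled as a biological replicate. KO banded hearts came from Apelin knockout mice with an aortic band, which narrows the aorta and raises the pressure that the left ventricle works against. KO sham hearts came from knockout mice after sham surgery, WT banded hearts from wild-type mice with the band, and WT sham hearts from wild-type mice after sham surgery. Total RNA of the heart was labelled with biotin and hybridised to Affymetrix arrays. The labels call the genotype a knockout and give no strain, age, sex, time after surgery or chamber of the heart. Whether banding changed pressure or heart weight in these animals was not analysed here.

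Median intensities lay between 40.3 and 50.4, and an intensity of 16 lay above 25.8 to 29.8% of each array's probe sets. The arrays were less alike at the bright end, with a highest intensity of 10231 on WT sham 2 and 21832 on WT sham 3. Heart muscle markers (Myh6, Tnnt2, Actc1, Myl2) were among the brightest probe sets on every array. Atrial markers ranged widely, with Sln at 1.42 to 7649, so the arrays differed in how much atrial signal they held. Apln, the gene targeted in the knockout, read 271, 123 and 160 in KO banded hearts and 63.7, 111 and 85.4 in KO sham hearts, against 205, 223 and 255 in WT banded hearts and 333, 323 and 212 in WT sham hearts. The array labelled KO banded 1 therefore read above 4 of the 6 wild-type arrays for the targeted gene. Whether this probe set lies in the deleted part of Apln is not given in the sources used here. KO banded 1 also held the highest level of the airway marker Scgb1a1, 1094, against 1.93 to 49.8 on the other 11 arrays. Of the 4 airway and lung markers, Scgb3a2 was also highest there (410, against 14.9 to 51.8). Sftpc (49.2) and Sftpb (54.3) lay within the range of the other arrays. Results that rest on KO banded 1 are therefore given with and without it.

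Values are linear intensities per probe set, and differences were computed on log2(intensity + 16). A gene passed a comparison when the adjusted p (Benjamini-Hochberg, over all 10916 genes) was under 0.05 in one limma model of the 4 groups. The probe set with the greatest mean log2 value stood for each gene, and all 37 probe sets were also tested beside the other single-gene probe sets. Intensities of different probe sets do not compare the levels of genes. In RNA of the heart, fewer cells of a type and less RNA per cell cannot be told apart.

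Mef2a was the single member that passed a test with all 12 arrays. It fell in KO banded hearts against KO sham hearts. Rcan1 gave the greatest log2 difference of the 10 members in the same comparison, on 2 of the 3 KO banded arrays, and missed the threshold. Neither calcineurin subunit and none of the NFAT genes passed any of the 7 comparisons.

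Rcan1 encodes the calcineurin regulator that NFAT induces. RefSeq (build GRCm38.p6) lists a pair of start sites for it on the minus strand of chromosome 16, without saying in the table which transcript each one makes. The windows below run from 250 bases before each start to 10 bases after it, 5′ to 3′, and are shown because the NFAT core differs between them. The letters searched were GGAAA and, for the other strand, TTTCC, both set in capitals.
Rcan1 start site 1, chr16:92466160-92466419, minus strand: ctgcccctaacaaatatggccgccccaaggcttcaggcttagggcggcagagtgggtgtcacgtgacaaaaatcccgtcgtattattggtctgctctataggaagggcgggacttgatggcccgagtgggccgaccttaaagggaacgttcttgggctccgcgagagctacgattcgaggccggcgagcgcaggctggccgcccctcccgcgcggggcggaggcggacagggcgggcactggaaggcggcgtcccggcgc
Rcan1 start site 2, chr16:92400069-92400328, minus strand: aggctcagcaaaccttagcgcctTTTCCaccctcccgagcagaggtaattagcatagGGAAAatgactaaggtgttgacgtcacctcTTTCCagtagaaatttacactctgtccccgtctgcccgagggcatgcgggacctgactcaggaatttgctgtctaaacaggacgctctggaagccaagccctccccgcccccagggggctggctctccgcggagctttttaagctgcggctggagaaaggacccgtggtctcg

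The window of start site 2 held 3 NFAT cores, with first bases at -227, -193 and -163 from the start. As many or more were found in 9.41% of the 32817 promoter windows of 300 bases (250 before to 50 after the start). The window of start site 1 held none. Other members' windows held as many or more, with 5 cores for Mef2c (start site 1, matched or passed by 0.728% of windows), 4 for Ppp3cb (2.64%) and 3 for Nfatc4, so such a count was not particular to Rcan1. At least 1 core was present in 61.3% of all windows, so the letters are common, and a match is a description of sequence and not evidence of binding.

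The brighter Rcan1 probe set (1416600_a_at) read 1069, 3585 and 3365 in KO banded hearts, against 1022, 731 and 765 in KO sham hearts. In wild type it read 1078, 717 and 1378 in banded hearts, against 1249, 721 and 633 in sham hearts. KO banded 2 and 3 were the highest of the 12 arrays, and KO banded 1 lay just above the highest KO sham array and below 3 of the 6 wild-type arrays.
The other probe set (1416601_a_at) read 386, 2315 and 2243 in KO banded hearts, against 330, 280 and 314 in KO sham hearts. In wild type it read 488, 450 and 606 in banded hearts, against 510, 455 and 356 in sham hearts. The same 2 arrays stood far above the rest. Over the 12 arrays, those 2 included, the 2 probe sets gave a Pearson r of 0.94, a description of arrays that share RNA.

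**Figure D1:**
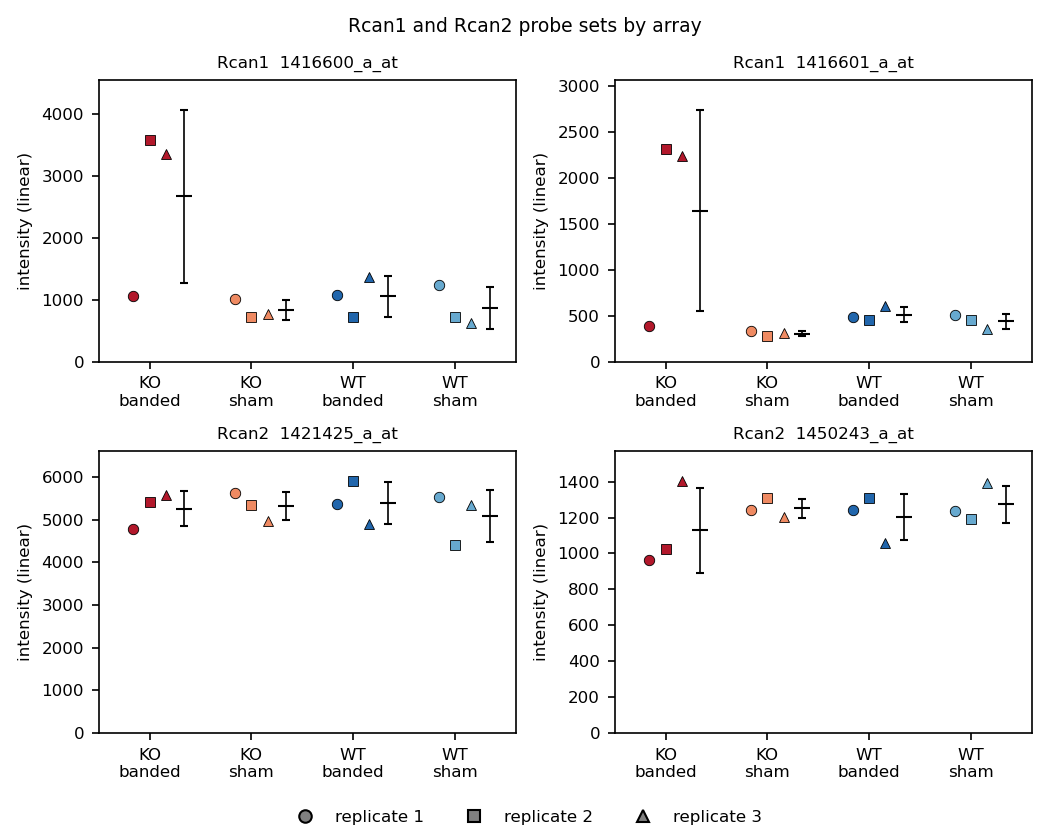
Linear intensity (vertical axis, from 0) of both Rcan1 and both Rcan2 probe sets on every array, with groups along the horizontal axis, 1 marker shape per replicate number and a bar at the group mean ± SD (n = 3). Rcan1 stood at 3365 to 3585 and at 2243 to 2315 in KO banded 2 and 3 and overlapped the other groups in KO banded 1, while Rcan2 overlapped among all groups.

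The mean of 1416600_a_at was 2673 ± 1393 in KO banded hearts and 839 ± 159 in KO sham hearts (SD, n = 3 each). Its log2 difference was 1.48 (SE 0.40, 95% interval 0.61 to 2.36), with a limma adjusted p of 0.0603. In wild type the banding difference was 0.30 (interval -0.58 to 1.17, adjusted p 0.983). The difference between genotypes was 1.19 in banded hearts (adjusted p 0.22) and 0.00 in sham hearts (adjusted p 0.999), and the interaction, which is the KO banding difference minus the WT one, was 1.19 (adjusted p 0.552). Probe set 1416601_a_at gave 1.99 for banding in KO (SE 0.50, adjusted p 0.0897 over 34945 probe sets). Between genotypes it gave 1.29 in banded hearts and -0.48 in sham hearts, and its interaction was 1.77, none of which passed. Unlike 1416600_a_at, all its KO sham arrays (280 to 330) lay below all its WT sham arrays (356 to 510), as did 6.29% of all probe sets. The 2 Rcan1 probe sets thus did not show the same genotype difference in sham hearts.

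Without KO banded 1, Rcan1 rose with banding in KO by 2.04 on the log2 scale (SE 0.29, adjusted p 0.000964). It was then also higher in KO banded than in WT banded hearts by 1.75 (adjusted p 0.0058), and the interaction was 1.75 (adjusted p 0.0432). These fits set 2 KO banded arrays against the other groups, and 1441 genes, 13.2% of those tested, then passed for banding in KO.

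Markers of other cells also differed between these arrays. The 6 macrophage markers, all on the array and tested, had a summed intensity of 2239, 3203 and 3316 in KO banded 1, 2 and 3, against 2305 to 2575 in KO sham hearts. In wild type the sums were 2349 to 3359 in banded hearts, against 2326 to 3302 in sham hearts. The 7 fibroblast markers summed to 6751, 9758 and 8909 in KO banded hearts, against 6858 to 8586 in KO sham hearts. Their sums were 9972 to 12101 in WT banded hearts, against 8142 to 10421 in WT sham hearts, and no marker of either list was at 0. Of these lists, the collagen gene Col1a1 alone passed for banding in KO, where it rose (441, 1068 and 639, against 257 to 324 in KO sham hearts). Dcn, which gave the largest part of the fibroblast sums, overlapped between those groups, at 3904 to 5195 against 4569 to 5256. The 8 endothelial markers summed to 4406, 4673 and 4727 in KO banded hearts, against 3739 to 4203 in KO sham hearts, and none passed. In wild type the endothelial sums were 4300 to 4534 in banded hearts, against 4141 to 5254 in sham hearts. The 2 of 3 erythroid markers on the array, of which Alas2 gave nearly all the signal and Hba-a1 was low, summed to 594, 1349 and 1414 in KO banded hearts, against 511 to 1189 in KO sham hearts. Their sums were 302 to 1443 in WT banded hearts, against 336 to 737 in WT sham hearts. The part of these cells in the Rcan1 levels was not tested.

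Rcan2 encodes a relative of Rcan1 that also binds calcineurin and is abundant in heart and brain. Its brighter probe set (1421425_a_at) read 4787, 5405 and 5584 in KO banded hearts, against 5634, 5335 and 4973 in KO sham hearts. It read 5361, 5893 and 4904 in WT banded hearts, against 5520, 4394 and 5350 in WT sham hearts. All groups overlapped. The log2 difference with banding was -0.02 in KO (interval -0.27 to 0.24) and 0.08 in WT (interval -0.17 to 0.34), neither past the threshold (limma adjusted p 0.96 and 0.983). The 2 arrays with high Rcan1 were not the 2 highest for Rcan2, since WT banded 2 and KO sham 1 read above both.

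Ppp3ca encodes the alpha catalytic subunit of calcineurin. Its brightest probe set (1426401_at) read 457, 438 and 468 in KO banded hearts, against 428, 463 and 461 in KO sham hearts. It read 447, 437 and 368 in WT banded hearts, against 460, 441 and 451 in WT sham hearts. The readings lay within 368 to 468 on all 12 arrays and the KO groups overlapped. The banding difference was 0.01 in KO (interval -0.19 to 0.21) and -0.11 in WT (interval -0.31 to 0.09).

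Ppp3cb encodes the beta catalytic subunit, whose loss is known to blunt hypertrophy in mice. Probe set 1428473_at read 783, 782 and 810 in KO banded hearts, against 928, 978 and 866 in KO sham hearts. It read 702, 678 and 834 in WT banded hearts, against 822, 866 and 755 in WT sham hearts. The KO banded arrays all lay below the KO sham arrays, and the wild-type groups overlapped. The banding difference was -0.22 in KO (interval -0.43 to -0.0049, adjusted p 0.226) and -0.14 in WT (interval -0.35 to 0.07, adjusted p 0.96). All 5 Ppp3cb probe sets had a negative banding difference in KO, at -0.36 to -0.09, and none passed. One of them, 1446149_at, lay below 16 on all 12 arrays, so its differences say little about the gene.

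Nfatc1, best known in the heart for valve and endocardial development, read 223, 154 and 174 in KO banded hearts, against 154, 194 and 175 in KO sham hearts (1428479_at). It read 164, 211 and 187 in WT banded hearts, against 175, 180 and 201 in WT sham hearts. The groups overlapped, with banding differences of 0.06 in KO (interval -0.25 to 0.37) and 0.01 in WT (interval -0.30 to 0.32). Of its 5 probe sets, 1447084_at and 1447085_s_at lay below 16 on 5 of 12 arrays each.

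Nfatc3 is an NFAT factor through which calcineurin acts on hypertrophy in mouse heart. Probe set 1419976_s_at read 150, 139 and 141 in KO banded hearts, against 146, 154 and 144 in KO sham hearts. It read 148, 157 and 161 in WT banded hearts, against 149, 152 and 148 in WT sham hearts. Readings were close together on all 12 arrays, with KO banded 2 and 3 the lowest. The banding differences were -0.04 in KO (interval -0.25 to 0.16) and 0.05 in WT (interval -0.15 to 0.25).
The second Nfatc3 probe set (1452497_a_at) read 116, 127 and 80.7 in KO banded hearts, against 97.7, 107 and 95.6 in KO sham hearts. It read 135, 164 and 136 in WT banded hearts, against 77.5, 104 and 95.7 in WT sham hearts. Here the WT banded arrays were the 3 highest of the 12, with a banding difference of 0.57 in WT (SE 0.16, unadjusted p 0.00397, adjusted p 0.757). The 2 Nfatc3 probe sets thus did not show the same pattern in wild type.

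Nfatc4, whose protein was found as a GATA4 partner in heart muscle, had low readings. Probe set 1423380_s_at read 62.4, 62.5 and 45.7 in KO banded hearts, against 29.4, 39.1 and 53.7 in KO sham hearts. It read 43.5, 54.5 and 76.0 in WT banded hearts, against 77.3, 93.7 and 45.8 in WT sham hearts. The groups overlapped in every comparison. The difference was -0.62 for KO sham against WT sham (unadjusted p 0.0238, adjusted p 0.93), with 4 of 4 probe sets negative there. Of the 4, 1423379_at and 1432821_at lay below 16 on all 12 arrays.

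Mef2a encodes a MEF2 factor of the adult heart. RefSeq (GRCm38.p6) places its listed start on the minus strand of chromosome 7. Its window is shown because it was the one window, of 14 for the 8 members in the table, with a match to the MEF2 motif, which begins 2 bases before the start and is set in capitals. The motif was searched on both strands by its consensus and occurred in 3.19% of all windows.
Mef2a start site 1, chr7:67372849-67373108, minus strand: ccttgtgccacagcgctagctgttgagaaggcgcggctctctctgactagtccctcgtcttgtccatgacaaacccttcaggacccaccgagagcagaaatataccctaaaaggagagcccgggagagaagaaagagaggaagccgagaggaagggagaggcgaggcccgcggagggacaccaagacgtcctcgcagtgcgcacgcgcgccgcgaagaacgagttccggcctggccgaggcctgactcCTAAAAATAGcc

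Mef2a probe set 1452347_at read 1990, 1691 and 1419 in KO banded hearts, against 2253, 2362 and 2401 in KO sham hearts. It read 1992, 1930 and 2216 in WT banded hearts, against 2008, 2282 and 2091 in WT sham hearts. All KO banded arrays lay below all KO sham arrays, KO banded 2 and 3 were the lowest of the 12, and the wild-type groups overlapped.
Probe set 1427185_at read 1286, 1103 and 1047 in KO banded hearts, against 1598, 1907 and 1723 in KO sham hearts. It read 1591, 1445 and 1686 in WT banded hearts, against 1647, 1734 and 1533 in WT sham hearts. Here the 3 KO banded arrays were the lowest of all 12.
Probe set 1427186_a_at read 724, 652 and 481 in KO banded hearts, against 810, 862 and 860 in KO sham hearts. Probe set 1421252_a_at read 441, 396 and 368 in KO banded hearts, against 465, 607 and 611 in KO sham hearts. Neither pair of groups overlapped. The dim probe sets 1442623_at (67.3 to 81.0 in KO banded hearts, against 87.4 to 111 in KO sham hearts) and 1425426_a_at (72.1 to 77.2 in KO banded hearts, against 70.2 to 94.7 in KO sham hearts) read lower on average, and the second of them overlapped between the groups.

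**Figure D2:**
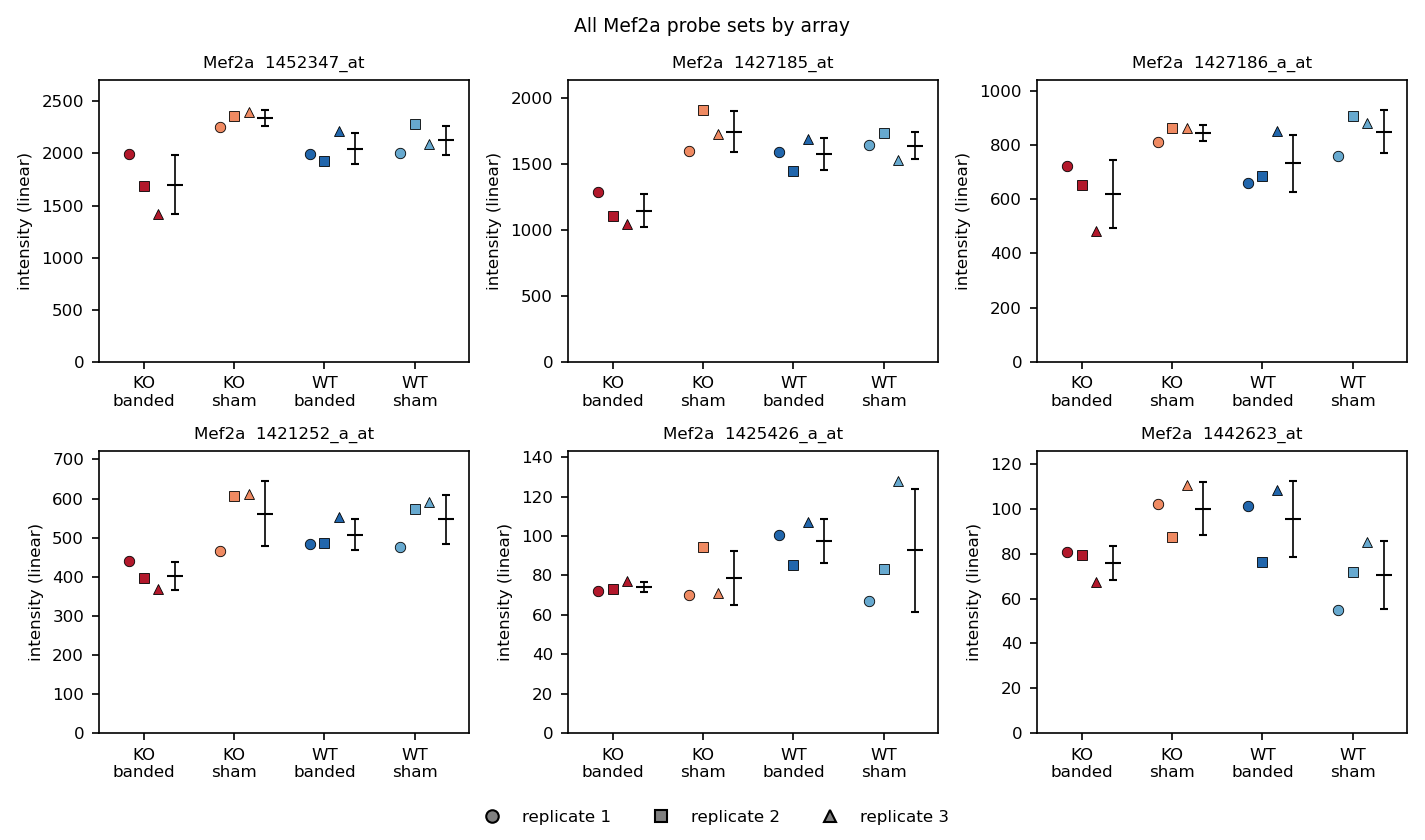
Linear intensity (vertical axis, from 0) of all 6 Mef2a probe sets on every array, with groups along the horizontal axis, 1 marker shape per replicate number and a bar at the group mean ± SD (n = 3). In 5 of the 6 panels every KO banded array lies below every KO sham array, while the WT banded and WT sham arrays overlap.

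The mean of 1452347_at was 1700 ± 286 in KO banded hearts and 2338 ± 76.7 in KO sham hearts (SD, n = 3 each). It fell by 0.47 on the log2 scale with banding in KO (SE 0.12, 95% interval -0.72 to -0.21, limma adjusted p 0.0467), close to the threshold. It was the 1 member of 10 that fell, beside 1.76% of all tested genes that fell, and no member rose, beside 2.05%. In either direction 3.81% of genes passed. Over all probe sets, 1427185_at was the 1 of 37 that passed for banding in KO (log2 difference -0.60, SE 0.11, adjusted p 0.0385), beside 0.667% of the 34945. In wild type the banding difference of 1452347_at was -0.06 (interval -0.31 to 0.20, adjusted p 0.992), and the interaction was -0.41 (interval -0.77 to -0.05, adjusted p 0.522). The fall in KO is therefore not shown to differ from the wild-type difference.

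The call did not hold when any array other than KO banded 1 was left out: the difference was then -0.50 to -0.35 and the adjusted p 0.0508 to 0.193. Without KO banded 1 it was -0.59 (adjusted p 0.00483). With the mean of all 6 probe sets in place of the brightest it was -0.40 (adjusted p 0.0739). In all, the call was lost under 17 of 24 alternatives.

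Heart muscle markers were also lower in sum in KO banded hearts than in KO sham hearts. All 8 general and ventricular markers were on the array and tested, none was at 0, and 1 of them, the calcium release channel Ryr2, fell with banding in KO. Their median log2 difference was -0.31 for banding in KO. They summed to 68417, 67441 and 67821 in KO banded 1, 2 and 3, against 82022 to 90253 in KO sham hearts. In wild type the sums were 77045 to 96155 in banded hearts, against 68447 to 132803 in sham hearts. The highest intensity of any probe set was also lower on KO banded arrays, at 10813 to 11291, against 12544 to 14746 on KO sham arrays. The part of heart muscle content, or of this difference at the bright end, in the Mef2a fall was not tested.

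Mef2c encodes the MEF2 factor needed for forming the heart in mouse embryos. Its brightest probe set (1424852_at) read 774, 773 and 896 in KO banded hearts, against 983, 847 and 869 in KO sham hearts. It read 788, 739 and 611 in WT banded hearts, against 766, 786 and 683 in WT sham hearts. Banding differences were -0.14 in KO (interval -0.39 to 0.10) and -0.07 in WT (interval -0.31 to 0.18), and both pairs of groups overlapped. The KO sham arrays all lay above the WT sham arrays, with a difference of 0.27 (interval 0.02 to 0.51, unadjusted p 0.0357, adjusted p 0.93).
All 5 Mef2c probe sets were on average higher in KO sham than in WT sham hearts, by 0.17 to 0.30, and none passed. Averaged over surgery, 1424852_at was 0.23 above wild type (limma unadjusted p 0.0136, adjusted p 0.405). The 5 Mef2c probe sets did not share this: 3 were higher and 2 lower, at -0.09 to 0.24. In banded hearts 2 were higher in KO and 3 lower, at -0.49 to 0.23. The widest banding difference among its probe sets was -0.55 in KO, for 1421028_a_at, which read 273, 175 and 258 in KO banded hearts, against 366, 388 and 294 in KO sham hearts (adjusted p 0.296).

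Mef2d encodes a MEF2 factor that carries stress signals to hypertrophy in mouse heart. Its brightest probe set (1434487_at) read 1049, 607 and 687 in KO banded hearts, against 840, 963 and 951 in KO sham hearts. It read 869, 789 and 695 in WT banded hearts, against 818, 856 and 896 in WT sham hearts. KO banded 1 was the highest of the 12 arrays, and KO banded 2 and 3 were the lowest. The banding difference in KO was -0.27 (SE 0.16, interval -0.62 to 0.09, adjusted p 0.376) with all arrays. Without KO banded 1 Mef2d fell by 0.49 (SE 0.11, adjusted p 0.0147).
The other Mef2d probe sets showed less: 1437300_at read 711, 722 and 840 in KO banded hearts, against 626, 801 and 842 in KO sham hearts, and 1421388_at read 392, 325 and 337 in KO banded hearts, against 370, 421 and 383 in KO sham hearts. Their banding differences were 0.01 and -0.15, and the 3 probe sets correlated weakly over the 12 arrays (r -0.17 to 0.37). The fall without KO banded 1 thus rests on 1 of 3 Mef2d probe sets.

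**Figure D3:**
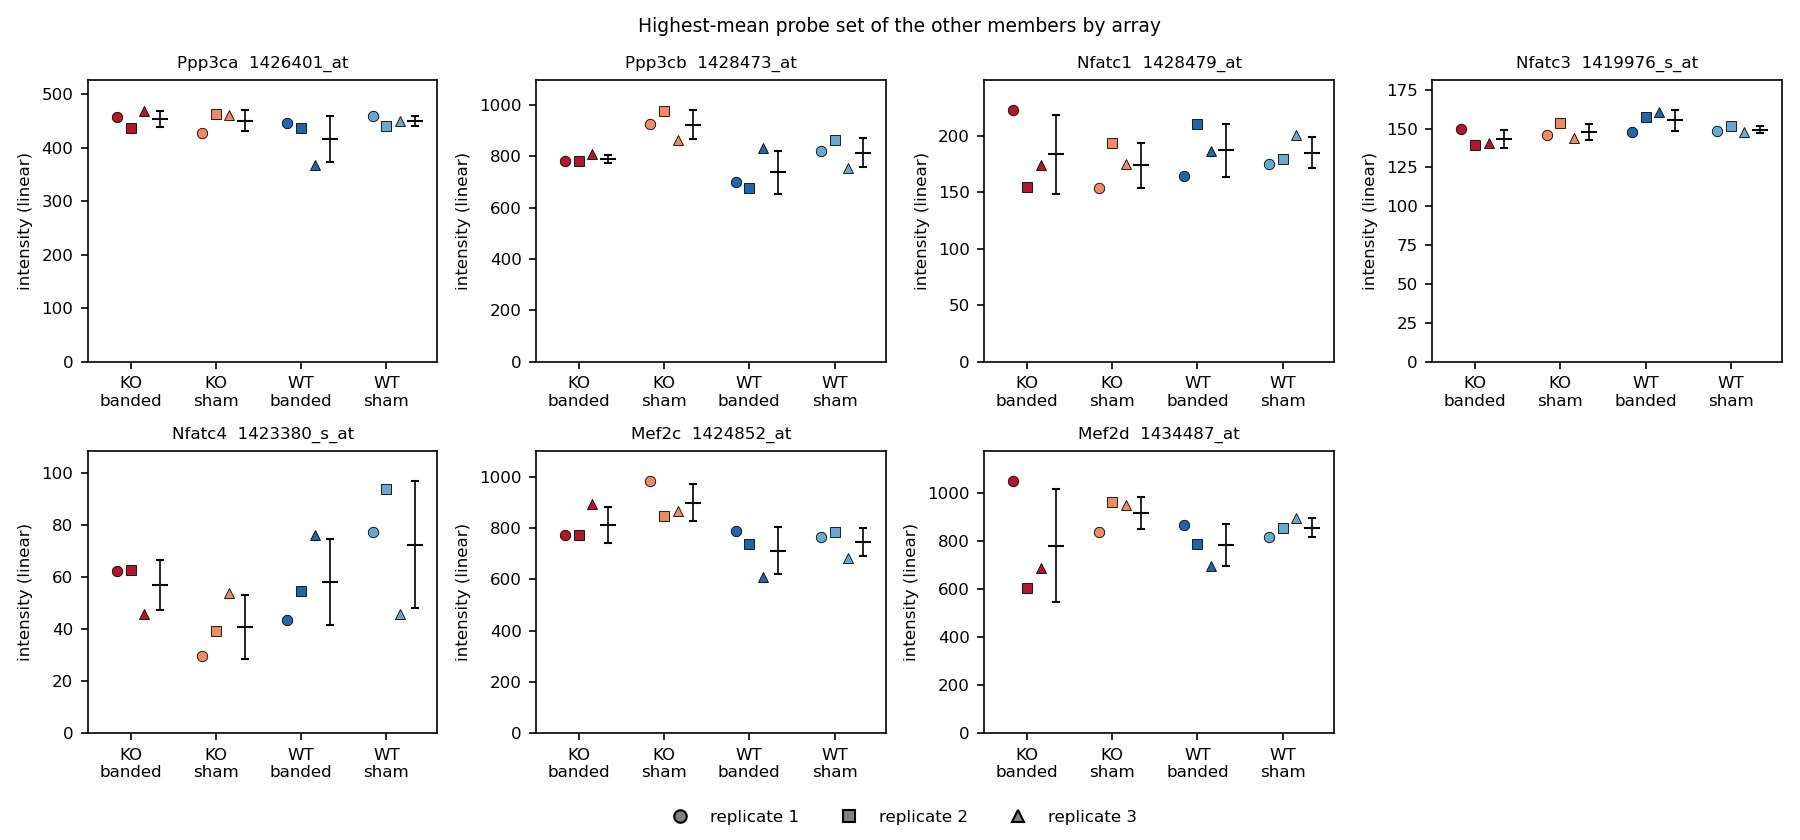
Linear intensity (vertical axis, from 0) of the highest-mean probe set of the other 7 members on every array, with groups along the horizontal axis, 1 marker shape per replicate number and a bar at the group mean ± SD (n = 3). Ppp3cb is lower in all 3 KO banded arrays (782 to 810) than in the KO sham arrays (866 to 978), and KO banded 1 (1049) is apart from KO banded 2 and 3 (607 and 687) for Mef2d.

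Over the 37 probe sets, all banded arrays lay above all sham arrays in KO for 3 and below them for 10, 5 of which were probes of Mef2a. Over all 34945 probe sets the arrays did not overlap for 9.05% with the banded arrays higher and 10.4% with them lower. In WT the counts were 2 higher and 1 lower, beside 4.12% and 5.85% of all probe sets. No member passed for banding in WT with limma, and none of the 10 had an unadjusted p under 0.05. No gene at all passed there (0% of 10916), although 4.89% had an unadjusted p under 0.05.

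The median banding difference of the 10 members was -0.03 in KO, beside -0.02 for all tested genes, and -0.06 in WT, beside -0.02. The members Rcan1, Mef2a and Ppp3cb had an unadjusted p under 0.05 for banding in KO, where 21.1% of all tested genes did. With banding averaged over genotypes, 0 of 10 members passed in limma beside 1.6% of all genes. Rcan1, Mef2a and Ppp3cb again had an unadjusted p under 0.05, where 18.2% of all genes did. The adjusted p for the average was 0.128 for Mef2a, 0.129 for Rcan1 and 0.196 for Ppp3cb.

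**Figure D4:**
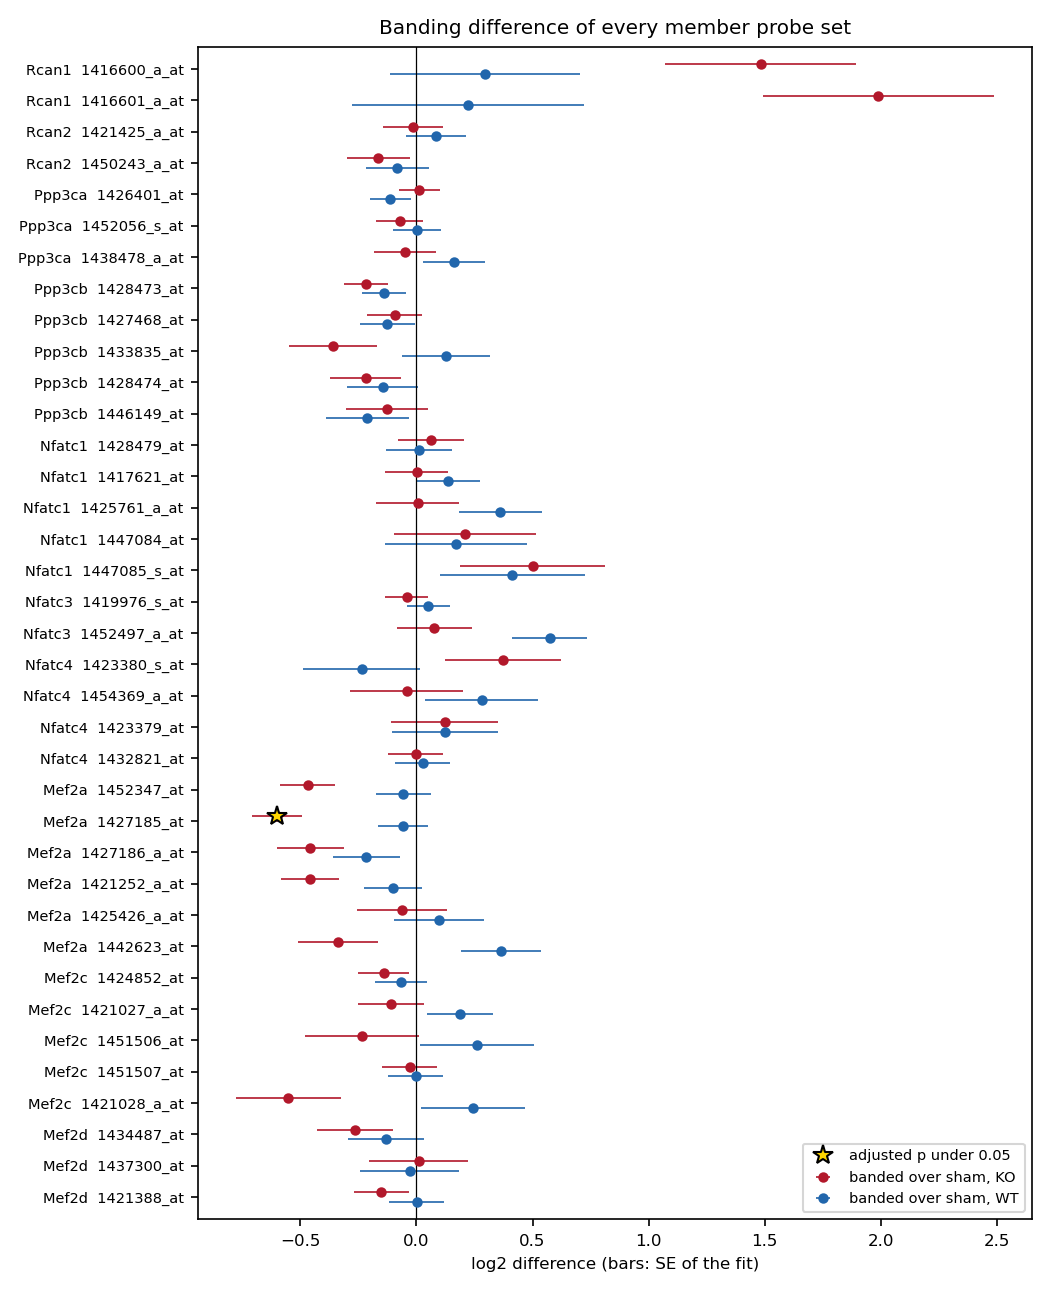
Log2 difference of banded over sham hearts (horizontal axis) for each of the 37 member probe sets (rows, grouped by gene), in KO (red) and WT (blue), with bars of 1 SE of the fit and a star where the adjusted p was under 0.05. Both Rcan1 probe sets lie at 1.48 and 1.99 in KO, all 6 Mef2a probe sets lie below 0 in KO, and the single star is Mef2a 1427185_at at -0.60.

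Between genotypes, 0 of 10 members passed in banded hearts with limma, beside 0% of all genes. Rcan1 (1.19) and Mef2a (-0.28) were the 2 with an unadjusted p under 0.05, beside 14.6% of all genes. All KO banded arrays lay below all WT banded arrays for 5 of 37 probe sets, 3 of them of Mef2a, and above for 1, beside 8.81% and 6.77% of all probe sets. In sham hearts 0 of 10 members passed, with 0% of all genes, and the 2 with an unadjusted p under 0.05 were Mef2c and Nfatc4, beside 5.22% of all genes. All KO sham arrays lay above all WT sham arrays for 4 of 37 probe sets and below them for 2, beside 3.94% and 6.29% of all probe sets. Averaged over surgery, 0 of 10 members and 0% of genes passed, and Mef2c alone had an unadjusted p under 0.05, beside 10.6% of all genes. Apln, the targeted gene, did not pass in sham hearts (log2 difference -1.57, limma unadjusted p 3.67e-05, adjusted p 0.401). Nor did Apln pass averaged over surgery (-0.96, adjusted p 0.237). The genotype comparisons thus do not show that the members were alike in both genotypes. The interaction passed for no member and for no gene (0%), with Mef2a the 1 member with an unadjusted p under 0.05, beside 9.11% of all genes. The comparisons of banding in KO and of KO against WT in banded hearts share the KO banded arrays, so their members' values are not independent.

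KO banded 1 moved these counts. Without it, 1 member rose (Rcan1) and 2 fell (Mef2a and Mef2d) for banding in KO, beside 13.2% of all tested genes that passed. The same 3 members passed for banding averaged over genotypes, beside 9.12% of all genes. Rcan1 alone passed in banded hearts between genotypes, beside 6.11%, and for the interaction, beside 1.91%. No member passed without it for banding in WT, for sham hearts between genotypes or for genotype averaged over surgery, beside 0%, 0.00916% and 1.29% of all genes.

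**Figure D5:**
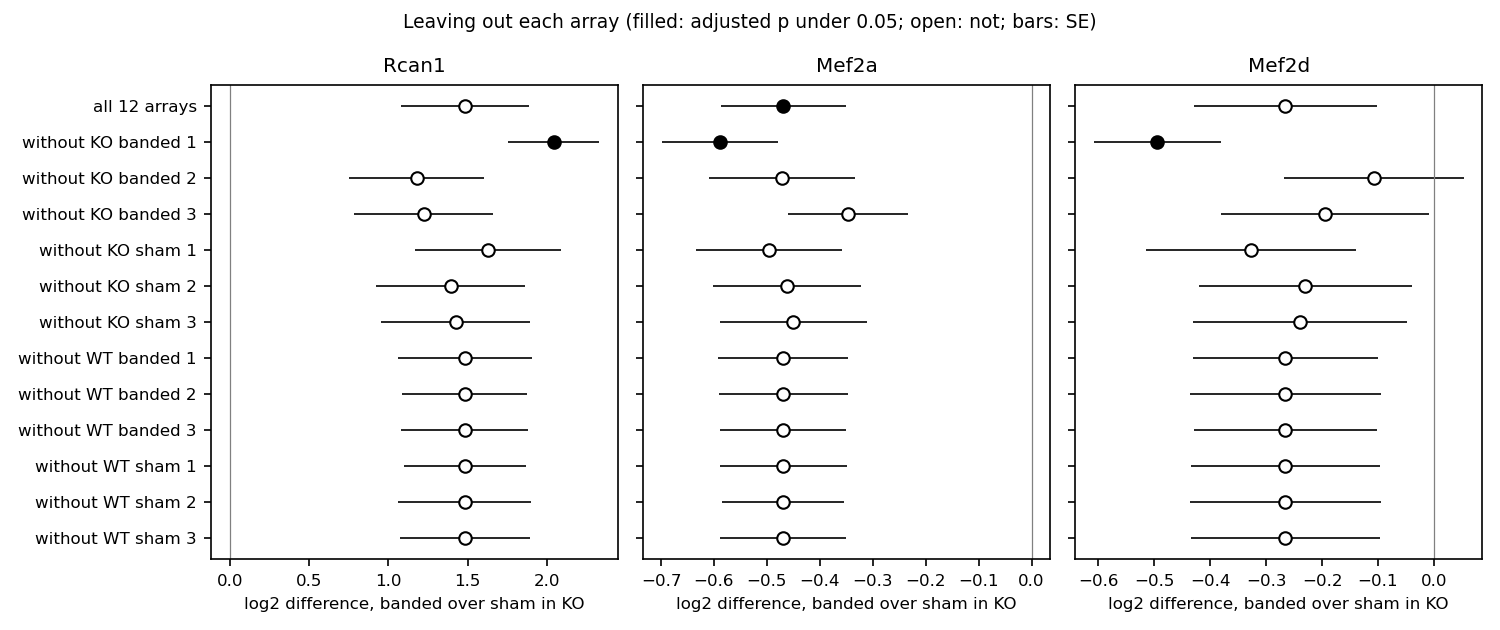
Log2 difference of banded over sham hearts in KO (horizontal axis) for Rcan1, Mef2a and Mef2d with all 12 arrays and with each array left out in turn (rows), with bars of 1 SE and filled points where the adjusted p was under 0.05. Only without KO banded 1 are all 3 points filled (2.04, -0.59 and -0.49), and with all arrays Mef2a alone is filled.

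The members did not move as 1 block. KO banded 2 and 3, the 2 arrays with the highest Rcan1, held the lowest readings of the 4 brighter Mef2a probe sets. They also held the lowest readings of Mef2d 1434487_at and of Nfatc3 1419976_s_at, the latter in a narrow range of 139 to 161. The brightest Ppp3ca probe set was highest of the 12 on KO banded 3 (468) and within the range of the others on KO banded 2 (438). The brightest probe sets of Rcan2, Ppp3cb, Nfatc1, Nfatc4 and Mef2c on those arrays lay within the range of the other 10. The contrast of Rcan1 with Mef2a is made up of only 2 of 12 arrays, so their correlation is not given. Probe sets of the same gene agreed to different degrees. Median Pearson r over the 12 arrays was 0.94 for Rcan1, 0.48 for the 15 pairs of Mef2a, 0.50 for Rcan2 and for Nfatc3, and -0.11 for the 6 pairs of Nfatc4, whose readings were low. It was 0.09 for Ppp3ca, 0.16 for Ppp3cb, 0.18 for Nfatc1, 0.19 for Mef2d and 0.30 for Mef2c. Weak agreement was thus not confined to genes with low readings. The value for Rcan1 includes KO banded 2 and 3, far above the rest on both probe sets, and was not computed without them.

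The tested genes most like Mef2a in pattern were Efnb3 (r = 0.96), Kcnd2 (r = 0.96) and Gpr155 (r = 0.96) over the 12 arrays. Efnb3 encodes an ephrin ligand, Kcnd2 a potassium channel subunit of the fast transient outward current, and Gpr155 a membrane receptor protein. Without KO banded 2 and 3, the arrays farthest from the median of Mef2a, r was 0.83, 0.90 and 0.79 over 10 arrays. Rcan1 was added after its values were seen, and the genes most like it were Col4a2 (r = 0.97), Msn (r = 0.96) and Anxa3 (r = 0.96), with 0.87, 0.82 and 0.85 without the same 2 arrays. Col4a2 encodes a basement membrane collagen, Msn the membrane linker moesin and Anxa3 an annexin.

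Other genes of the pathway were read from 6 lists with 51 tested genes. For banding in KO, 0 rose, 1 fell and 50 did not pass, beside 2.05% of all tested genes that rose and 1.76% that fell, with a median of -0.07 beside -0.02 for all tested genes. In WT, none passed, with a median of -0.01. The paralogues outside the members (5 tested, among them the regulatory subunit Ppp3r1 and the osmotic stress factor Nfat5) had none that passed in any comparison. Ppp3r1 read 951, 871 and 981 in KO banded hearts, against 940, 870 and 971 in KO sham hearts. It read 820, 720 and 764 in WT banded hearts, against 943, 836 and 783 in WT sham hearts. Its KO banded arrays all lay above its WT banded arrays (difference 0.28, limma adjusted p 0.227), as for 6.77% of all probe sets. Of the 11 kinases and export factors that act on NFAT, 1 fell.

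Mapk14, the p38 alpha kinase that can phosphorylate NFAT and MEF2 proteins, read 666, 567 and 483 in KO banded hearts, against 935, 836 and 801 in KO sham hearts. It read 732, 722 and 717 in WT banded hearts, against 805, 886 and 998 in WT sham hearts. The groups did not overlap in either genotype. It fell by 0.58 with banding in KO (SE 0.12, adjusted p 0.0242) and by 0.44 averaged over genotypes (SE 0.08, adjusted p 0.0329), while the WT difference alone was -0.30 (adjusted p 0.921). The KO call was lost when any one KO array other than KO banded 1 was left out (adjusted p up to 0.114), and without KO banded 1 it was -0.69. The averaged call was lost in 10 of 12 such fits (adjusted p up to 0.0801).

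Hdac9, a class IIa deacetylase that binds MEF2 and represses its targets, read 123, 120 and 117 in KO banded hearts, against 144, 176 and 152 in KO sham hearts. It read 136, 116 and 134 in WT banded hearts, against 173, 216 and 159 in WT sham hearts. Banded arrays lay below sham arrays in both genotypes. It fell by 0.40 averaged over genotypes (SE 0.09, adjusted p 0.0478), and the call was lost in 11 of 12 fits that left out 1 array (adjusted p up to 0.128). The other 11 of the 12 tested deacetylases and deacetylase kinases did not pass in any comparison with all arrays.

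In the remaining lists no gene passed with all arrays. Among calcineurin's partners, Lmcd1, a LIM protein that promotes calcineurin signalling in mouse heart, read 584, 1058 and 1176 in KO banded hearts, against 554, 397 and 478 in KO sham hearts. It read 838, 461 and 480 in WT banded hearts, against 774, 584 and 658 in WT sham hearts. KO banded 2 and 3 were again the highest of all arrays, with a KO banding difference of 0.91 (SE 0.26, adjusted p 0.0749).
Fbxo32, the ubiquitin ligase atrogin-1 that targets calcineurin, read 911, 731 and 791 in KO banded hearts, against 582, 622 and 674 in KO sham hearts. Its KO banding difference was 0.36 (adjusted p 0.129). The muscle methyltransferase Smyd1 differed by -0.10 in KO and by 0.28 in WT (adjusted p 0.549 and 0.921), and the coactivator myocardin, Myocd, by -0.44 and 0.37 (adjusted p 0.276 and 0.921). The calcium channels Cacna1c (-0.20 in KO, -0.01 in WT) and Trpc1 (0.23 in KO, -0.32 in WT) did not pass either.
Without KO banded 1, 2 of the 51 rose and 5 fell for banding in KO, a share near the 13.2% of all tested genes that passed in that fit. Those that rose were Lmcd1 (1.21, adjusted p 0.00471) and the calcium-binding protein Cib1 (0.73), and those that fell were Mapk14, Camk2a, Hdac4, Hdac5 and Tbc1d10c. For banding averaged over genotypes Hdac5, Hdac9, Mapk14 and Tbc1d10c fell, beside 9.12% of all genes that passed. Between genotypes in banded hearts without that array, 2 were higher in KO, Lmcd1 (0.95, adjusted p 0.0288) and the NFAT kinase Dyrk1a (0.42, adjusted p 0.0321), and 2 were lower, Mapk14 (-0.45, adjusted p 0.0359) and the calcineurin inhibitor Tbc1d10c (-0.99, adjusted p 0.0119), beside 6.11% of all genes. The interaction passed for Lmcd1 (1.43, adjusted p 0.0371) and Dyrk1a (0.64, adjusted p 0.0396), beside 1.91%, and genotype averaged over surgery for Tbc1d10c (-0.60, adjusted p 0.0458), beside 1.29%.

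Of the 4 genes read as signs of hypertrophy, 2 rose with banding in KO, beside 2.05% of all tested genes. Myh7, which encodes beta-myosin heavy chain and is induced in mouse ventricles under pressure, read 9203, 9324 and 9091 in KO banded hearts, against 1132, 1656 and 1128 in KO sham hearts. It read 10045, 6718 and 1918 in WT banded hearts, against 5182, 1109 and 1361 in WT sham hearts. Myh7 rose with banding in KO by 2.83 (SE 0.58, adjusted p 0.0239), and skeletal actin, Acta1, rose by 1.54 (SE 0.36, adjusted p 0.0375). KO banded 1, with Rcan1 at the level of sham hearts, was thus level with the other KO banded arrays for Myh7.
The WT banding differences were 1.34 for Myh7 and 1.17 for Acta1 (adjusted p 0.921 and 0.918). The natriuretic peptide gene Nppb read 4999, 8018 and 8390 in KO banded hearts, against 4240, 1298 and 3159 in KO sham hearts, with a difference of 1.42 (adjusted p 0.0936). It read 6296, 6654 and 6660 in WT banded hearts, against 6874, 2060 and 2351 in WT sham hearts (1.02, adjusted p 0.921). WT sham 1 was thus above the WT banded arrays for Nppb, and was the highest WT sham array for Myh7 (5182). WT banded 3 was the lowest WT banded array for Myh7 (1918). Without KO banded 1 Nppb rose by 1.66 (adjusted p 0.0465), beside 13.2% of all genes that passed, and Myh7 (2.83, adjusted p 0.016) and Acta1 (1.57, adjusted p 0.0289) passed as well. Nppa differed by 0.29 with banding in KO with all arrays (adjusted p 0.781). The call of Acta1 was lost in 5 of 12 fits that left out 1 array, as was that of Myh7 (adjusted p up to 0.146 and 0.107).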

How the data were processed

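Total RNA of 12 mouse hearts was labelled with biotin and hybridised to 1-colour Affymetrix arrays, per the labels' protocols. The deposited values are 1 intensity per probe set and array on a linear scale. The scaling software is not given in the sources used here, but the 2%-trimmed mean was 150 on every array, so the deposited intensities were used without further scaling. Of 45101 probe sets, 64 were controls, 34945 had 1 gene in the platform annotation, 932 had several and 9160 were not listed there. Entrez identifiers matched a current record for 34741 probe sets and changed 0 symbols.

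Intensities were analysed as log2(value + 16). For each of 18193 genes the probe set of highest mean log2 value was kept, and the upper 60% of genes by that mean (10916) were tested. One limma model (3.58.1, R 4.3.3) of the 4 groups, with trended empirical Bayes variances and 8 residual degrees of freedom, gave 7 comparisons: banding in KO, in WT and averaged, KO against WT in banded hearts, in sham hearts and averaged, and the interaction. P-values were adjusted by Benjamini-Hochberg over all genes at a threshold of 0.05, and a second fit covered all 34945 probe sets. The averaged comparisons weight both genotypes or both surgeries equally. The precision is limited by 3 arrays per group. P-values set each group difference against only the spread between these samples, pooled over the 4 groups and moderated over all genes or probe sets in the fit.

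The fit was tested on simulated data: for banding in KO, with 10916 genes, 78.3 of 100 genes changed 2-fold and 41.7 of 100 changed 1.5-fold were recovered, with 6.25% of calls false. The simulated noise was normal, independent between genes and of equal spread on all arrays. It held no array apart from its group, as KO banded 1 was for some genes, so these rates need not hold for the real arrays. In no pair of arrays were most values exactly equal. Samples of the same replicate number did not deviate together (2 of 18 pairs had r over 0.1), so the numbers were not taken as pairs. Tables and figures were made with Python 3.11.15, pandas 2.3.3 and matplotlib 3.10.9.

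The members and lists (65 pathway genes in 7 lists, of which 59 were on the array and 55 tested, and 11 lists of cell markers) were chosen with earlier results of these data known. The genes named were all 10 members, listed genes that passed a comparison (or the 2 with the smallest p in a list with none), Nppa, Nppb, Acta1, Myh7 and Apln, and the 3 genes most like each called member in pattern. Names outside this rule (Rcan1's 3 like genes, and listed genes that passed without KO banded 1) were chosen after their values were seen. Promoter windows came from a RefSeq table (GRCm38.p6). Alternatives changed the filter, the added constant, the scaling, the variance trend, array weights, the probe set rule, the arrays in the fit and a replicate block. Leaving arrays out of the probe set fit, and all alternatives for the listed genes, were added after seeing the data.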

Additional observations from a re-analysis of the deposited data

How the results depend on the processing

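With all arrays 1 member passed for banding in KO. The count was 0 with no filter, quantile scaling, no variance trend, the mean of probe sets or only the groups compared, and 3 with array weights or without both KO banded 1 and WT banded 3. Without 1 array it was 0 to 3 members, and 3 only without KO banded 1, and 0 to 6 member probe sets. The replicate numbers did not pair the samples, and with the replicate number as a block the count for banding in KO was 0 members and 0 probe sets, and the block changed no call of another member. For banding averaged over genotypes 0 members passed, against 2 with array weights, 3 without both arrays, 0 to 3 without 1 array and 0 to 6 probe sets without 1 array. In banded hearts between genotypes 0 passed, against 1 with array weights, 1 without both arrays, 0 to 1 without 1 array and 0 to 3 probe sets. For genotype averaged over surgery 1 member passed without both arrays, and 0 members and 0 to 1 probe set without 1 array. For the interaction 1 member passed without both arrays, and 0 to 1 member and 0 to 1 probe set without 1 array. Over all genes, 416 passed for banding in KO, against 1870 with array weights, 212 with no filter, 74 with only the groups compared, 237 with the block, 1349 without both arrays and 9 to 1441 without 1 array. For banding averaged, 175 genes passed, against 769 with array weights, 77 with no filter, 88 with no variance trend, 60 with the block, 928 without both arrays and 5 to 996 without 1 array. In banded hearts between genotypes 0 genes passed, against 581 with array weights, 354 without both arrays and up to 667 without 1 array. The interaction gave 96 without both arrays and up to 208 without 1 array, and genotype averaged over surgery gave 83 and up to 141. The cause was not tested. The adjusted p for banding in KO ranged over 0.00335 to 0.193 for Mef2a and 0.000777 to 0.251 for Rcan1, and no called difference changed sign. In the listed genes the call was lost under 8 of 24 alternatives for Acta1, 7 for Mapk14 and 5 for Myh7 with banding in KO, and under 16 of 23 for Hdac9 with banding averaged. Probe sets near or below an intensity of 16 limit what can be said of Nfatc4 and of single probe sets of Nfatc1 and Ppp3cb.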
